A study of Mus musculus with 4 samples.

Results

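The suppressors of cytokine signalling (SOCS family) were followed across RNA-seq libraries of mouse bone marrow-derived dendritic cells. The family was taken by gene symbol as Cish, Socs1, Socs2, Socs3, Socs4, Socs5, Socs6 and Socs7, and all 8 genes were among the 13685 genes listed in the authors' tables. The cells came from the bone marrow of C57BL/6 mice aged 4 weeks. Every group was grown in IL-4 (10 ng/ml) and GM-CSF (10 ng/ml) over 7 days, and both cytokines themselves signal through JAK-STAT. The groups were control medium (the control), Wnt2 (a secreted Wnt ligand), culture medium of CAFs (CAF.CM; CAF usually stands for cancer-associated fibroblast), and CAF.CM incubated with an antibody to Wnt2 before use (CAF.CM + Wnt2 antibody). The sources used here do not give the Wnt2 dose, the treatment time or the origin of the CAFs.

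Cytokine receptors without kinase activity of their own use Janus kinases (JAKs) to phosphorylate STAT transcription factors, and STATs switch on SOCS genes. A SOCS protein carries a central SH2 domain, which binds phosphotyrosine, and a C-terminal SOCS box, which recruits elongins and cullin-5 to form a ubiquitin ligase. Socs1 and Socs3 also block JAK activity directly, so the family closes a negative feedback loop that in dendritic cells and macrophages limits responses to interferons, IL-6-type cytokines, IL-4 and GM-CSF.

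Each group had 1 column of values, called a library here, and the series text speaks of triplicates without saying whether a column pools them. There is therefore no replicate check, no difference below has a p-value of its own, and every interval is a 95% interval for counting error only. Levels are in CPM, reads scaled to the authors' library sizes. Depth over the listed genes was 143071376 reads (control), 154399767 (Wnt2), 25225220 (CAF.CM) and 22791494 (antibody), so values in the last 2 are less precise. In bulk RNA, fewer cells of a type and less RNA per cell cannot be told apart. Of 12 conventional dendritic cell markers 11 were listed, with a summed level of 2233.9 CPM in the control, 1096.2 under Wnt2, 807.5 under CAF.CM and 609.0 after antibody addition. Itgax, which encodes CD11c, and Sirpa carried most of this sum: Itgax was at 888, 223, 47.7 and 30.3 CPM and Sirpa at 1010.5, 558, 406 and 325 CPM in that order of libraries. The dendritic cell factors were mixed, with Irf4 at 91.2 CPM in the control and 171.5 under CAF.CM, and Zbtb46 at 15.7 and 17.1. Irf8 was lower under CAF.CM, at 145.2 CPM in the control and 94.5 under CAF.CM, and Batf3 was at 14.1 and 12.4. Ccr7 was near level between those libraries (48.5 and 49.0 CPM), and Flt3 and Xcr1, near 1 CPM elsewhere, had no value in the CAF.CM libraries. The 12 macrophage and monocyte markers summed to 28938 CPM in the control, 20850.4 under Wnt2, 9643 under CAF.CM and 6696.2 after antibody addition. Lyz2 alone gave 25764, 18049.6, 6907 and 4425 CPM of these sums, while Cd14 was at 405 CPM in the control and 988 under CAF.CM and Ly6c2 at 18.7 and 88.6. Neutrophil markers were listed for 4 of 12 genes, with Ly6g, Mpo and Elane listed in no table, and summed to 597.5 CPM in the control, 1537.7 under Wnt2, 156.8 under CAF.CM and 107.8 after antibody addition (3 genes with a value in the last 2). Mmp8 alone gave 543.7 CPM of the control sum and 1489 of the Wnt2 sum, and Csf3r was at 48.6 CPM in the control and 35.01 under Wnt2. Fibroblast markers were listed for 6 of 9 genes, without Col1a1, Lum and Pdgfra, and summed to 11.2 to 17.2 CPM per library. Of these 6 genes, 4 had a value under CAF.CM and 3 after antibody addition, and Col1a2 and Col3a1 had none in either. Dcn, which encodes the matrix proteoglycan decorin, was at 0.509 CPM in the control, 1.009 under Wnt2, 10.7 under CAF.CM and 13.9 after antibody addition, so it was high in the same libraries as Socs1 and Cish below. Dcn gave most of the fibroblast sums of 16.6 CPM under CAF.CM and 17.2 after antibody addition. Postn went the other way, at 4.51 CPM in the control and 0.691 under CAF.CM. These markers differ between libraries along with the SOCS values below, and their part in those values was not tested.

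The 3 members with the widest ranges over the libraries, Socs3, Socs1 and Cish, are known as cytokine-induced genes, and their promoters are shown because the words they hold differ. Windows from 250 bases before to 50 bases after an annotated start were used for 4 members (these and Socs4), from RefSeq on GRCm38.p6. For Socs3 and Cish this start lies inside the gene span given below, downstream of the gene's outermost start. For Socs1 it is the outermost start. The windows were searched on both strands for TTCNNNGAA (bound by STAT dimers), the same word with a spacer of 4 bases (a STAT6 spacing), a pair of GAAA words 2 bases apart (the core of an interferon response element) and CTTTGAT (a TCF/LEF word). Capitals mark the matches in the sequences below, which run 5′ to 3′ on the gene's strand. They end at the base before the start, except that Cish is shown to 30 bases from it onward.
Socs3, chr11:117969367-117969616, minus strand: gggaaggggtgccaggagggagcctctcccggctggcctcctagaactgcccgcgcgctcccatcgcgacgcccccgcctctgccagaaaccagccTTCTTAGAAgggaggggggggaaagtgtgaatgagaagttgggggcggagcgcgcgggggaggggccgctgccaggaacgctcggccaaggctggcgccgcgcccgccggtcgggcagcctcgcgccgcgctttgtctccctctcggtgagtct
Socs1, chr16:10785537-10785786, minus strand: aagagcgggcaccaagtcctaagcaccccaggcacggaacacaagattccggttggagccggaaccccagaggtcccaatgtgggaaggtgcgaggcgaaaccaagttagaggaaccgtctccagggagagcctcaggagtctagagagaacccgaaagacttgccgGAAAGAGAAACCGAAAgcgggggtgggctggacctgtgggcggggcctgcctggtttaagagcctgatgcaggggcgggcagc
Cish, chr9:107296409-107296688, plus strand: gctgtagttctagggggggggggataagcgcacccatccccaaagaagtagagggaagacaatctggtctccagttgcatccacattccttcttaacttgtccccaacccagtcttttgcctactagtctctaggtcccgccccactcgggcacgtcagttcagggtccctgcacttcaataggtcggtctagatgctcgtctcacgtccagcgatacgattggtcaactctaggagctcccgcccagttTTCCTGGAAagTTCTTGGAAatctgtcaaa
Socs3 had 1 TTCNNNGAA match, ttcttagaa, beginning 154 bases before the start. Cish had 2 such matches, ttcctggaa at the start itself and ttcttggaa 11 bases further on. Socs1 had no STAT-spaced word and 2 overlapping interferon-type matches, gaaagagaaa and gaaaccgaaa, beginning 83 and 77 bases before the start. The Socs4 window held none of the 4 words, and CTTTGAT was in none of the 4 windows. Socs6 was left out of this search by rule. Among all 32851 RefSeq windows of 300 bases, 8.30% held TTCNNNGAA, 6.95% the form with the longer spacer, 3.44% the interferon-type word and 3.73% CTTTGAT. A match is a run of letters and was not tested as a binding site.

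Socs3, the inhibitor of receptors that signal through gp130, varied most. Socs3 (ENSMUSG00000053113, GRCm38 chr11:117966079-117970047, minus strand) stood at 13.8 CPM in the control (counting interval 13.2 to 14.4), 40.2 CPM with Wnt2 (39.2 to 41.2), 94.9 CPM with CAF.CM (91.2 to 98.7) and 45.9 CPM with CAF.CM + Wnt2 antibody (43.2 to 48.8). The control was lowest and CAF.CM highest, the Wnt2 and antibody libraries lay between them, and none of the 4 counting intervals overlapped.

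Socs1, the inhibitor best known for restraining interferon signalling, was low in both libraries without CAF.CM. Socs1 (ENSMUSG00000038037, chr16:10782240-10785536, minus strand) stood at 1.74 CPM in the control (246 reads), 1.85 CPM with Wnt2 (284 reads), 9.68 CPM with CAF.CM (252 reads) and 7.84 CPM after antibody addition (182 reads). The intervals of the control (1.53 to 1.97) and Wnt2 (1.64 to 2.08) overlapped, as did those of CAF.CM (8.52 to 10.95) and the antibody (6.75 to 9.07), with a wide gap between these 2 pairs of libraries.

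Cish, a feedback inhibitor of cytokine receptors that use STAT5, had another order. Cish (ENSMUSG00000032578, chr9:107296026-107302784, plus strand) stood at 4.82 CPM in the control (interval 4.46 to 5.19), 7.99 CPM with Wnt2 (7.55 to 8.45), 18.6 CPM with CAF.CM (17.0 to 20.3) and 20.3 CPM after antibody addition (18.5 to 22.3). Both CAF.CM libraries were high and overlapped each other, and Wnt2 lay between them and the control. Cish shares exon bases with 2 genes on the opposite strand, Gm17040 and Gm17041, which are listed in no table. The sources used here do not say whether the authors counted by strand.

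Socs2, which limits growth hormone and STAT5 signalling, had a narrow range. Socs2 (ENSMUSG00000020027, chr10:95385362-95417180, minus strand) stood at 34.5 CPM in the control, 38.5 under Wnt2, 47.4 under CAF.CM and 38.8 after antibody addition. CAF.CM was highest (44.8 to 50.1) and the control lowest (33.5 to 35.4), while Wnt2 and the antibody overlapped. Of its longest transcript, 8.57% of 31-base words also occur in other annotated genes, mainly Gm9847.

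Socs4, Socs5, Socs6 and Socs7 are less tied to JAK-STAT feedback and more to receptor tyrosine kinases and adaptor proteins. Socs6, an adaptor described for the Kit and insulin receptors, was over 1.5-fold lower in every treated library, the only member of which this holds. Socs6 (ENSMUSG00000056153, chromosome 18) stood at 97.0 CPM in the control (interval 95.4 to 98.6), 60.3 with Wnt2 (59.1 to 61.6), 43.1 with CAF.CM (40.6 to 45.7) and 32.8 after antibody addition (30.5 to 35.2). No 2 of these intervals overlapped. For Socs6, 13.5% of 31-base words occur in other genes, mainly the pseudogene Gm9449, so a part of its reads is uncertain.

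Socs5, described as a regulator of the EGF receptor and of IL-4 signalling, was lower in both CAF.CM libraries. Socs5 (ENSMUSG00000037104, chr17:87107679-87137839, plus strand) stood at 14.7 CPM in the control (14.1 to 15.4), 15.1 with Wnt2 (14.5 to 15.7), 10.6 with CAF.CM (9.39 to 11.9) and 6.68 after antibody addition (5.67 to 7.82). The control and Wnt2 overlapped and the other libraries did not.

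Socs4 and Socs7 had the flattest profiles. Socs4 (ENSMUSG00000048379, chr14:47276931-47296102, plus strand), a close relative of Socs5, stood at 39.3 CPM in the control, 38.7 under Wnt2, 32.8 under CAF.CM and 35.9 after antibody addition, a 1.198-fold range. Socs7 (ENSMUSG00000038485, chr11:97362551-97398542, plus strand), which binds insulin receptor substrate and cytoskeletal proteins, stood at 34.2, 30.6, 30.9 and 40.0 CPM in the same order of libraries, a 1.31-fold range. Their highest libraries differed, the control for Socs4 and the antibody for Socs7.

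**Figure D1:**
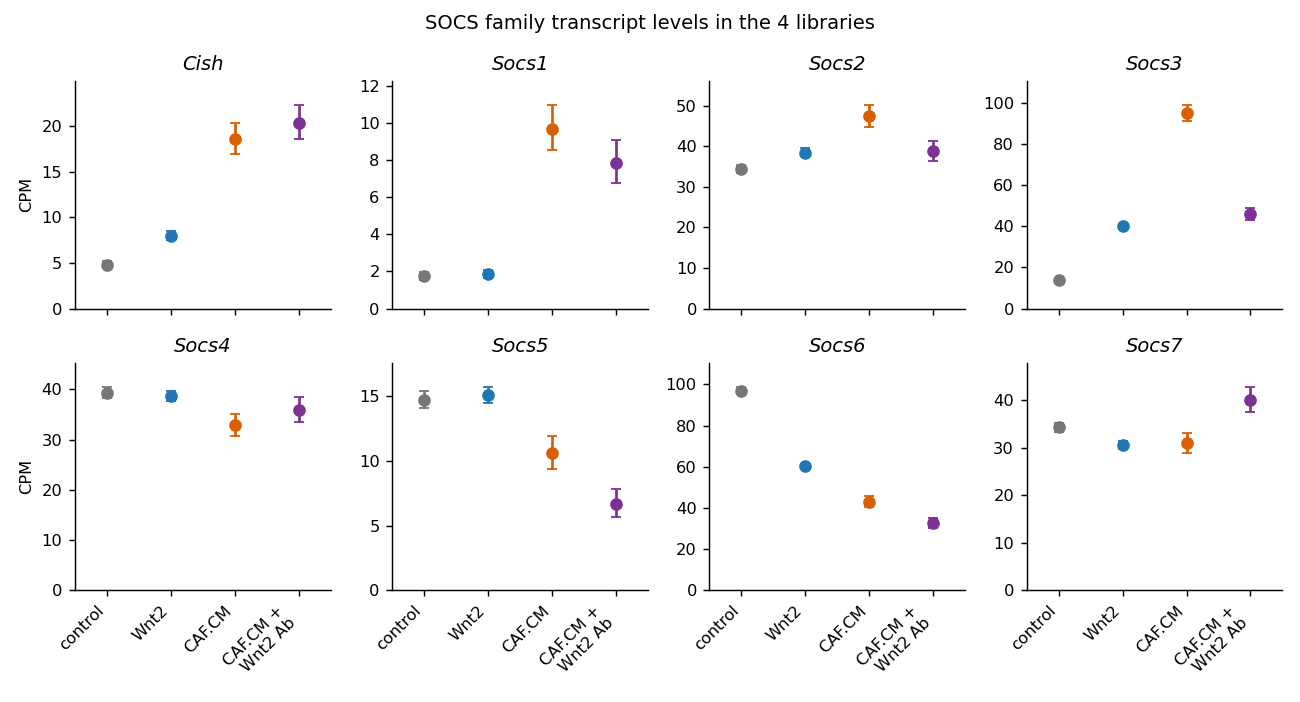
CPM of each SOCS family gene (y axis, linear, from 0, own scale per panel) in the 4 libraries (x axis); points are single libraries and bars are 95% counting intervals. Socs3 peaks with CAF.CM at 94.9 CPM, Socs1 and Cish are high in both CAF.CM libraries, and Socs6 is highest in the control at 97.0 CPM.

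Levels of different genes were compared as CPM per kb of exon sequence (union of annotated exons, GENCODE M21). In the control Socs6 led at 8.55 CPM per kb, followed by Socs4 (5.72), Socs3 (4.77), Socs7 (4.71), Socs2 (3.62) and Socs5 (2.30), with Cish (0.751) and Socs1 (0.598) last. Socs3 and Socs7 lay within counting error of each other (4.56 to 4.98 and 4.58 to 4.85). With Wnt2, Socs3 led at 13.9 CPM per kb, followed by Socs4 (5.62, interval 5.48 to 5.77) and Socs6 (5.32, interval 5.21 to 5.43).

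With CAF.CM the level of Socs3 was 32.8 CPM per kb, and the other 7 members ranged from 1.65 (Socs5) to 4.97 (Socs2). With the antibody Socs3 was at 15.9, and the others ranged from 1.04 (Socs5) to 5.51 (Socs7). Socs3 thus made up 15.4% of the summed family level per kb in the control, 37.3% under Wnt2, 56.1% under CAF.CM and 39.3% after antibody addition. Socs6 made up 27.6%, 14.3%, 6.50% and 7.13% in the same order. The summed family level was 31.01 CPM per kb in the control, 37.3 under Wnt2, 58.5 under CAF.CM and 40.5 after antibody addition. Per kb of the longest annotated transcript instead, the shares of Socs3 were 12%, 31.3%, 50.1% and 34.6%. By both lengths Socs6 was first in the control and Socs3 first in the other libraries, while the order of the middle members, such as Socs2, depended on the length used.

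**Figure D2:**
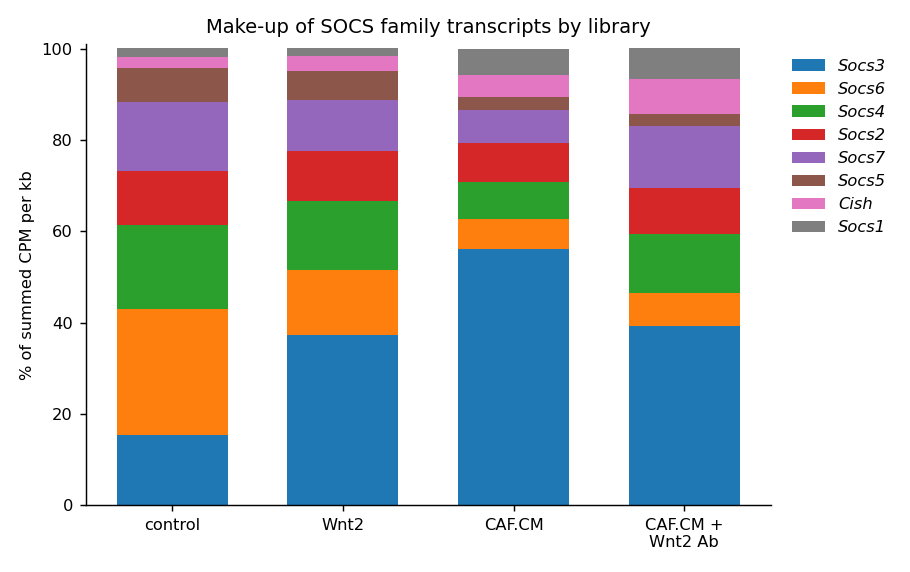
Share of each gene in the summed level of the SOCS family (y axis, percent of CPM per kb of exon sequence, from 0) in each library (x axis). Socs3 takes 15.4% in the control and 56.1% with CAF.CM, while the share of Socs6 is largest in the control at 27.6%.

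Setting Wnt2 against the control addresses the aim in the series title, the search for Wnt2 targets. With Wnt2, Socs3 was 2.92-fold higher than in the control (log2 ratio 1.54, interval 1.47 to 1.62) and was the only one of the 8 members beyond 2-fold. Cish was 1.66-fold higher (0.73, interval 0.59 to 0.87) and Socs6 1.61-fold lower (-0.68, interval -0.72 to -0.65), each within 2-fold. Socs2 stood at 0.16 and Socs7 at -0.16, small ratios whose intervals left out 0. For Socs1 (0.09, interval -0.16 to 0.34), Socs5 (0.03, interval -0.06 to 0.12) and Socs4 (-0.02, interval -0.08 to 0.03) no difference was detectable at this depth.

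Of all 13120 genes in this comparison 5.80% lay beyond 2-fold either way, 2.87% higher and 2.93% lower, against 1 of 8 members. At 1.5-fold 3 of 8 members and 15.4% of all genes passed. The members' median log2 ratio was 0.06, beside -0.02 for all genes, and Socs3 stood at percentile 98.8. In the authors' deposited table, adjusted p was below 0.05 for Socs3 (1.7e-11), Cish (0.00718) and Socs6 (0.0084). With 1 column per group, the basis of the deposited p-values is unknown here.

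With CAF.CM, 3 members were beyond 2-fold higher than in the control and 1 lower. Socs3 was 6.88-fold higher (log2 ratio 2.78, interval 2.70 to 2.87), Socs1 5.51-fold higher (2.46, interval 2.22 to 2.74) and Cish 3.84-fold higher (1.94, interval 1.78 to 2.12). Socs6 was 2.25-fold lower (-1.17, interval -1.26 to -1.08). The higher genes encode inhibitors of gp130, interferon and STAT5 receptors, and the lower gene a receptor kinase adaptor. Members with related roles did not pass 2-fold, Socs2 for STAT5 and Socs4, Socs5 and Socs7 for receptor kinases and adaptors. Socs2 (0.46), Socs7 (-0.15), Socs4 (-0.26) and Socs5 (-0.48) lay within 2-fold, with intervals that left out 0.

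Of all 13329 genes in this comparison 15.4% lay beyond 2-fold either way, with 6.68% higher and 8.69% lower, against 4 of 8 members. The members' median was 0.16, beside -0.045 for all genes, with 4 members above 0 and 4 below. Socs3 stood at percentile 99.0, Socs1 at 98.7 and Cish at 97.8 of all genes, and Socs6 at 6.71. In the authors' deposited table the adjusted p was 3.34e-34 for Socs3, 6.97e-22 for Socs1, 2.91e-16 for Cish and 3.8e-07 for Socs6, and above 0.05 for the other 4. The library made with CAF.CM was several times shallower than the control, and medium and library cannot be told apart.

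The next comparison sets CAF.CM incubated with the Wnt2 antibody against CAF.CM alone, and it shares the CAF.CM library with the comparison above. Socs3 was 2.06-fold lower after antibody addition (log2 ratio -1.05, interval -1.15 to -0.94), the only one of 8 members beyond 2-fold, and its interval reached inside 2-fold. Socs5 was 1.58-fold lower (-0.66, interval -0.96 to -0.38), and Socs6 (-0.40), Socs1 (-0.30, interval -0.59 to -0.02) and Socs2 (-0.29) were lower by less. Socs7 was 1.29-fold higher (0.37, interval 0.23 to 0.51).

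For Cish the ratio was 0.13 (interval -0.06 to 0.32), and for Socs4 0.13 (interval -0.01 to 0.27), so no difference was detectable at this depth for either gene. The members' median was -0.29, beside -0.04 for all genes. Of all 13072 genes 4.67% lay beyond 2-fold either way, 1.02% higher and 3.65% lower, against 1 of 8 members. At 1.5-fold 2 of 8 members and 15.1% of all genes passed. In the authors' deposited table Socs3 had an adjusted p of 5.99e-05, and the other 7 members lay above 0.05, Socs5 at 0.0836. By a stricter rule, a counting interval wholly beyond 2-fold, 0 of 8 members and 1.42% of all genes passed.

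**Figure D3:**
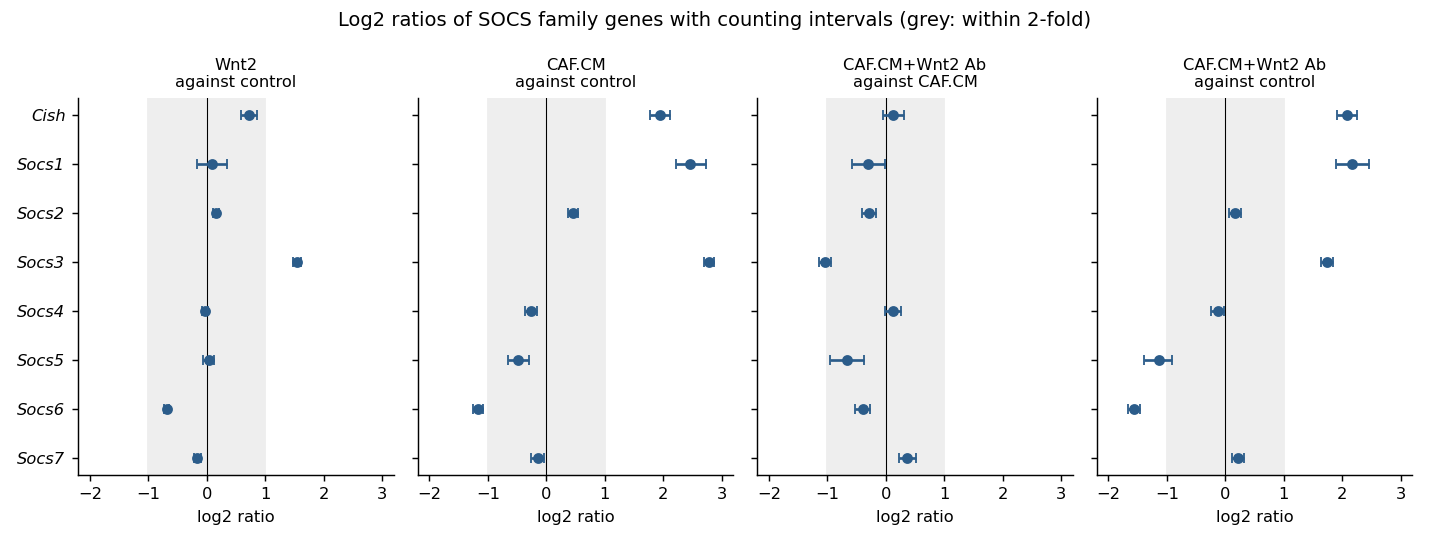
Log2 ratio (x axis) of each SOCS family gene (y axis) in 4 comparisons, 1 per panel; points are ratios of 2 libraries, bars are 95% counting intervals and the grey band spans ratios within 2-fold. Socs3 lies right of the band with Wnt2 (1.54) and CAF.CM (2.78) and just left of it for the antibody against CAF.CM (-1.05).

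Against the control, the antibody library still had 3 members beyond 2-fold higher. Socs1 was 4.46-fold higher (log2 ratio 2.16, interval 1.89 to 2.46), Cish 4.21-fold higher (2.07, interval 1.91 to 2.25) and Socs3 3.33-fold higher (1.74, interval 1.63 to 1.85). Socs6 (-1.57, interval -1.67 to -1.46) and Socs5 (-1.14, interval -1.39 to -0.91) were beyond 2-fold lower. Of the 12882 genes with a value in both libraries 20.7% lay beyond 2-fold either way, with 8.10% higher and 12.6% lower, against 5 of 8 members. These values come from different tables, in which the columns of shared libraries were identical.

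In CPM, the CAF.CM library held 81.1 CPM of Socs3 above the control, the antibody library 32.2 and the Wnt2 library 26.4. For Socs1 these differences were 7.94, 6.105 and 0.110 CPM, and for Cish 13.8, 15.5 and 3.17 CPM. The antibody library thus held 39.6% of the CAF.CM difference for Socs3, 76.9% for Socs1 and 113% for Cish. For Socs2, whose CAF.CM difference was 12.9 CPM, it held 33.5%. All of these differences share the control library. No group had CAF.CM with a control antibody, so blocking of Wnt2 and the addition of antibody cannot be told apart.

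CAF.CM was also set against Wnt2 alone. Socs1 was 5.19-fold higher with CAF.CM (log2 ratio 2.37, interval 2.14 to 2.64), Socs3 2.36-fold (1.24, interval 1.17 to 1.31) and Cish 2.32-fold (1.22, interval 1.06 to 1.37). The other 5 lay within 2-fold, Socs5 at -0.51, Socs6 at -0.48, Socs2 at 0.30, Socs4 at -0.24 and Socs7 at 0.02 (interval -0.09 to 0.12). Of 12988 genes 10.8% lay beyond 2-fold either way, 4.31% higher and 6.46% lower, against 3 of 8 members.

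**Figure D4:**
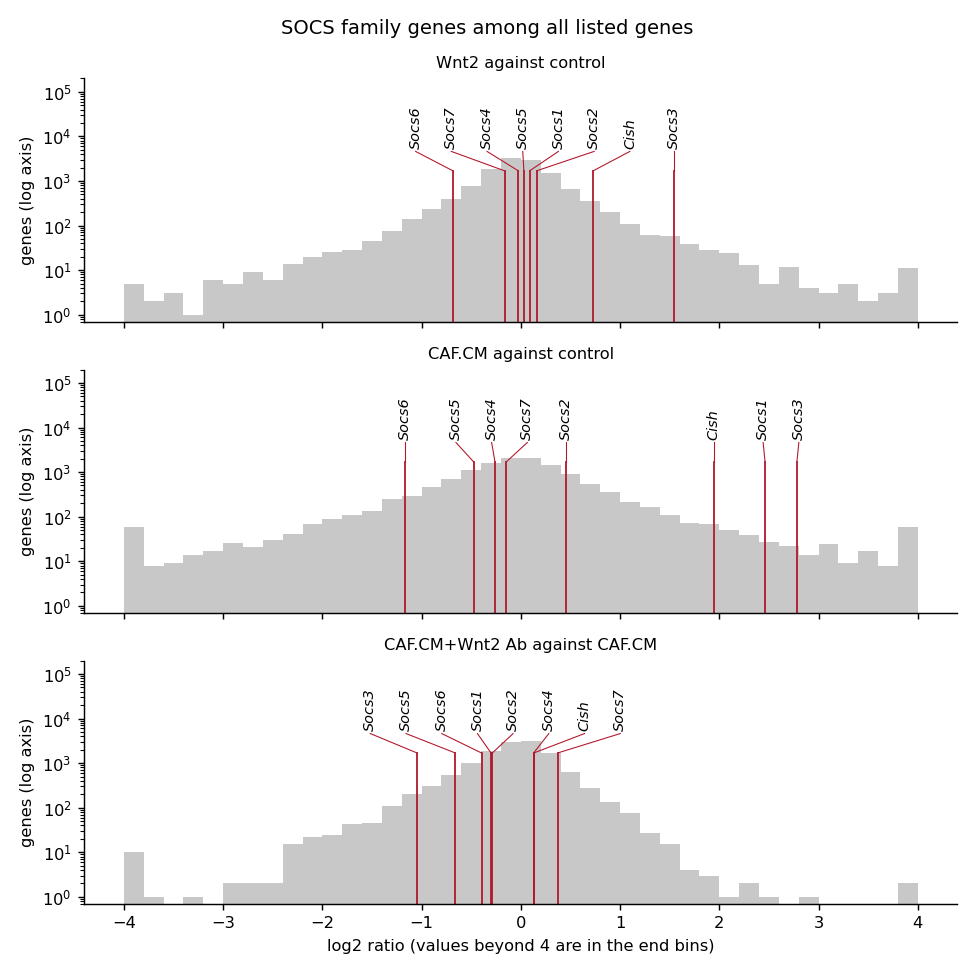
Number of genes (y axis, log axis) by log2 ratio (x axis, bins of 0.2) in the 3 comparisons that the authors tabulated; red lines mark the SOCS family genes. With CAF.CM, Cish, Socs1 and Socs3 stand at percentiles 97.8, 98.7 and 99.0 of all genes, apart from the other 5 members.

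The other genes of the pathway were taken from lists by role, and some genes are in more than 1 list. For all list counts below, the shares of all genes beyond 2-fold were 2.87% higher and 2.93% lower under Wnt2. With CAF.CM they were 6.68% higher and 8.69% lower, and for the antibody against CAF.CM 1.02% higher and 3.65% lower. Among cytokine ligands, which apart from Csf1 signal through JAKs, 7 of 26 were measured with Wnt2 and 2 were higher, the gp130 ligands Lif (2.31) and Osm (2.07). With CAF.CM 6 of 10 were higher and 0 lower. Il6, the founding gp130 cytokine, was at 1.72 CPM in the control, 2.49 under Wnt2, 22.7 under CAF.CM and 25.5 after antibody addition. Osm was at 6.77, 28.4, 25.2 and 37.8 CPM in the same order. Against CAF.CM alone 0 of 10 ligands were beyond 2-fold after antibody addition, with Lif at 0.73 and Osm at 0.58. In that comparison Il6 stood at 0.17, and of its receptor genes Il6st, which encodes gp130, stood at -0.35 and Il6ra at -0.64. The part of ligands and receptors in the Socs3 values was not tested. Of the 26 ligands 16 were listed in no table, Il10, Ifnb1 and Ifng among them.

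Of the cytokine receptors 1 of 27 was higher with Wnt2 and 4 lower. Lepr, the leptin receptor, whose signalling Socs3 blocks, was at 0.876 CPM in the control, 26.3 under Wnt2, 5.22 under CAF.CM and 3.02 after antibody addition. With CAF.CM 6 of 28 were higher and 6 lower, among them Csf3r, the G-CSF receptor, at -1.95. With the antibody against CAF.CM 0 of 27 were higher and 6 lower. The interleukin-10 receptor gene Il10ra stood at -1.01, Il21r at -1.10, Csf3r at -1.07 and Il12rb1 at -1.04.

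JAK kinases lay within 2-fold with Wnt2 in 4 of 4 cases. Jak2, the kinase of the GM-CSF receptor, was 2.78-fold higher with CAF.CM (181.2 CPM in the control, 503 with CAF.CM) and at 446 CPM after antibody addition. The gene of that receptor's own chain, Csf2ra, went the other way. It was at 187.7 CPM in the control, 121.0 under Wnt2, 50.6 under CAF.CM and 31.5 after antibody addition. Csf2rb, for the shared chain, was within 2-fold with CAF.CM (977 CPM in the control, 814 with CAF.CM). Jak1, Jak3 and Tyk2 were within 2-fold with CAF.CM. Of the STAT factors, Stat2, a partner in type I interferon signalling, was at 40.3 CPM in the control, 35.96 under Wnt2, 73.9 under CAF.CM and 32.8 after antibody addition. Stat2 was beyond 2-fold lower after antibody addition than under CAF.CM alone (-1.17). Stat3, which drives Socs3, was at 151, 176, 168 and 169 CPM, so it was close to level across the libraries, and Stat4 was 3.66-fold higher with CAF.CM.

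Other inhibitors of JAK-STAT signalling were mostly within 2-fold. Of 13 measured, 0 were beyond 2-fold under Wnt2, and with CAF.CM 1 was higher and 0 lower. It was Usp18, an inhibitor of the type I interferon receptor, at 4.03-fold higher (13.4 against 54.1 CPM). The phosphatase gene Ptpn6, which encodes SHP-1, was at 125 CPM in the control, 118 under Wnt2, 81.1 under CAF.CM and 52.1 after antibody addition. The 8 genes listed as parts of SOCS box ligases, such as Elob, Eloc, Cul5 and Rnf7, had 0 members beyond 2-fold in each of the 5 comparisons. Their medians were -0.10 under Wnt2, -0.03 under CAF.CM and 0.07 for the antibody against CAF.CM.

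Genes known as STAT targets were counted without the SOCS family members on those lists. For STAT3, 2 of 12 were higher and 2 lower under Wnt2, Timp1 (1.46) and Cebpd against Saa3 (-1.25) and Hp (-1.30), and 6 of 12 were higher with CAF.CM, led by Lcn2 (8.68) and Saa3 (3.06). With the antibody against CAF.CM 1 of 12 was lower, Hp (-1.04), which encodes haptoglobin, beside Socs3.

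For STAT5, 1 of 7 was higher with Wnt2 (Osm) and 5 of 7 with CAF.CM, among them Ccnd2 (1.65), with Bcl2l1 lower (-1.29). With the antibody against CAF.CM 0 of 7 were beyond 2-fold and the median was 0.24. For STAT6, the factor of IL-4, 5 of 16 were lower and 0 higher with Wnt2. With CAF.CM 4 of 16 were higher and 6 lower, with Egr2 at -3.59 and Mrc1 at -3.11. The 4 higher were Chil3 (1.81), Ccl24 (1.49), Ccl22 (1.43) and Clec10a (1.28). For the antibody against CAF.CM, 0 of 15 were higher and 1 lower.

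The profiles of the 5 members that varied over 2-fold were compared with 10626 other protein-coding genes over the 4 libraries. Likeness was the distance between log2 CPM profiles after each gene's mean was taken off, so 0 is an identical shape. The genes closest to Socs3 were Abca13, Parp10 and Thbs3, at distances of 0.51 to 0.65 against a median of 2.07 over all candidates. Abca13, an ABC transporter gene, was at 1.37 CPM in the control, 6.11 under Wnt2, 14.6 under CAF.CM and 6.89 after antibody addition. Closest to Cish were Cyp2ab1, Trim25 and Slc6a13 (0.16 to 0.18), and Trim25, a ubiquitin ligase of antiviral sensing, was at 98.6, 184, 449 and 461 CPM. Closest to Socs1 were Wnt6, Kctd1 and Tmtc2 (0.18 to 0.29), and Wnt6, a Wnt ligand gene, was at 2.67, 2.54, 15.1 and 12.8 CPM.

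The median distance over all candidates was 2.38 for Socs1, 1.84 for Cish, 1.16 for Socs6 and 0.95 for Socs5, so the members with flatter profiles lay closer to other genes in general. Close to Socs6 were Ids (0.0651) and Tnfrsf11a (0.0750), and closest to Socs5 were Zfp933, Arid4a and Cd302 (0.03 to 0.08). Within the family the most alike pairs were Socs4 and Socs7 (0.36) and Socs2 with each of them (0.53), all with flat profiles, then Socs5 and Socs6 (0.58). Socs1 lay at 0.83 from Cish and 1.39 from Socs3, and Socs1 and Socs6 were the least alike pair (3.34). With 4 libraries many genes share a shape, and these distances are a description.

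**Figure D5:**
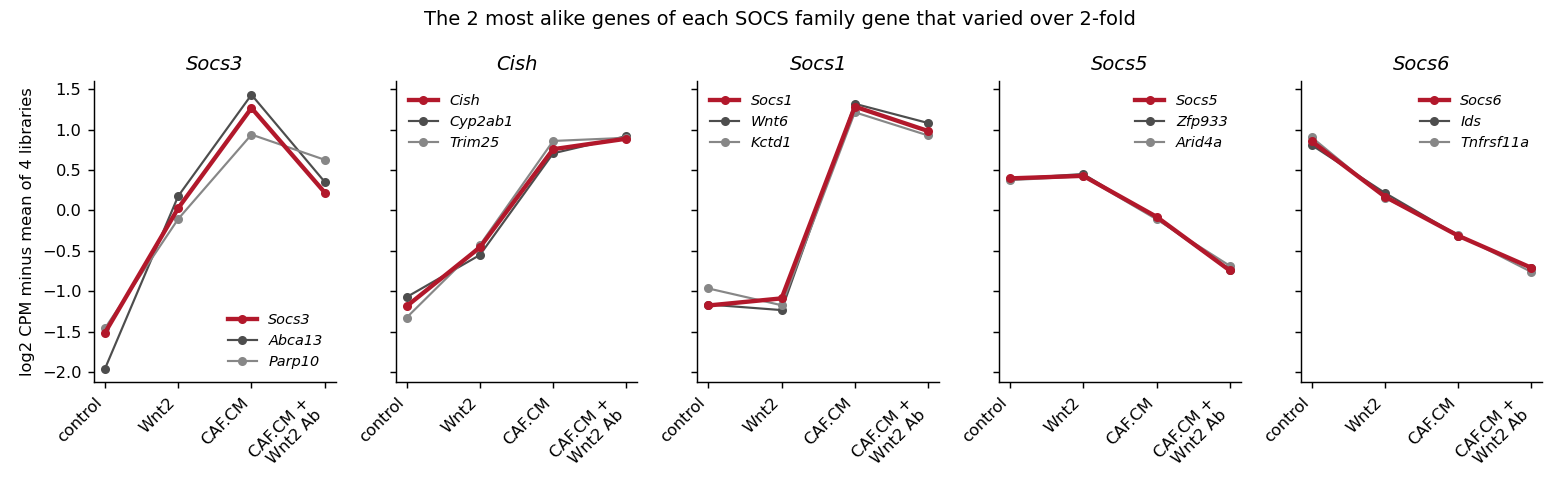
Log2 CPM minus the gene's mean over the 4 libraries (y axis) by library (x axis) for the 5 SOCS family genes that varied over 2-fold (red) and the 2 most alike genes of each (grey); lines only join the points of a gene. The grey genes nearest Socs3 lie 0.51 and 0.54 away, farther than those of the other 4 members.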

How the data were processed

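Ribosomal RNA was removed and a stranded TruSeq kit was used, per the labels' protocols. Per the submitters' processing notes, the tools were STAR 2.4.2a, RSEM 1.2.29 and edgeR and the builds GRCm38.p5 and mm10. Settings and counting strand were not stated. The authors deposited CPM per library, not log transformed, in 3 tables that list genes reaching about 1 CPM in a library. They also deposited log2 fold changes, log2 mean CPM and p-values, per the file headers. Whether p-values rest on an assumed dispersion is not stated.

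CPM values were whole multiples of 1 step per library (100.00% within 0.1 step), and reads were recovered from it. The step was 0.00706 CPM (control), 0.00651 (Wnt2), 0.0384 (CAF.CM) and 0.0431 (antibody). Columns of libraries present in 2 tables were identical for 12954 of 12954 and 12848 of 12848 genes.

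Log2 ratios used edgeR's log CPM formula with a prior count of 2 over all genes. A gene was called at 2-fold. Intervals of ratios are exact conditional binomial and those of levels exact Poisson, at 95% (scipy 1.17.1, Python 3.11.15). Without replicates no count test was made. The steps were tested on simulated data. Alternative scalings used DESeq2 1.42.0 and edgeR 4.0.16 in R 4.3.3.

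The members and gene lists were chosen with earlier results of these data known. Named genes were all members, up to 4 per list and comparison with the largest ratio among those with at least 200 reads, and the 3 most alike genes; some items that this rule names are not reported here. Also named, outside that rule, were Il6st, Il6ra, Csf2rb and the STAT6 targets higher with CAF.CM. Marker genes, and the libraries or comparisons for which other listed genes are given, were chosen after their values were seen. Lengths, positions and shared 31-base words came from GENCODE M21, promoter windows from RefSeq.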

Additional observations from a re-analysis of the deposited data

How the results depend on the processing

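Of 48 alternative counts of members, 4 differed from the reported count and 45 lay within 1.5 times of it. They covered DESeq2 size factors, total reads, own TMM factors, prior counts of 0.5 and 5, a minimum of 100 reads, the deposited fold changes, thinning, a 1.5-fold threshold and the counting-interval rule. At 1.5-fold, 3 members were called with Wnt2 (15.4% of all genes) and 2 with the antibody against CAF.CM (15.1%), by the threshold's construction. By the counting-interval rule 0 were called with the antibody against CAF.CM. Of 304 single-gene values under the first 8 alternatives 0 turned sign and 0 changed call. The minimum of 100 reads only selects genes, so its values among these equal the reported ones by construction. Socs3 with the antibody ranged from -1.07 to -1.01, always near the 2-fold line. Scalings moved the median of all genes by at most 0.08 on the log2 scale. No paired analysis was possible because each group has 1 library. The lowest read counts among members were 155 for Socs5 and 182 for Socs1, both in the antibody library.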

Other observations

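Other proteins with a SOCS box, but without the SH2 domain of the SOCS family, were counted as well. Of 19 measured, 1 was higher and 1 lower beyond 2-fold under Wnt2, 0 and 2 with CAF.CM, and of 18 measured 0 and 0 with the antibody against CAF.CM. Spsb1, which targets the inducible nitric oxide synthase, was at 3.17 CPM in the control, 9.54 with Wnt2 (3.01-fold higher), 6.26 under CAF.CM and 7.07 with the antibody. Asb11, the gene lower under Wnt2, was at 1.19 and 0.410 CPM. Asb4 was at 6.89 CPM in the control, 4.96 with Wnt2 and 0.922 with CAF.CM, and Asb2 was at 2.97, 1.55, 1.07 and 0.819 CPM over the 4 libraries.

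Toll-like receptor adaptors and NF-kappaB genes, which Socs1 is known to restrain through Tirap, had 1 of 15 higher under Wnt2, Nfkbiz (1.27), and 3 of 15 higher with CAF.CM, Nfkbia (1.68), Tnfaip3 (1.19) and Irak3 (1.13), with 0 lower in each. With the antibody against CAF.CM 0 of 15 were beyond 2-fold. Tirap itself was at 17.7 CPM in the control, 23.1 under Wnt2, 10.4 under CAF.CM and 7.93 with the antibody.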
